A study of Mus musculus with 4 samples.

Results

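Collagens are the secreted or membrane-bound chains whose genes carry the Col prefix, and the 44 collagen genes were examined in brain sections of mice with and without Pdcd10 in brain endothelium. The members were all genes of the count tables whose whole symbol reads Col, a number, the letter a and a number, which gave 44 of 32285 listed genes. By the known architecture of their proteins, 6 were basement-membrane (type IV) chains, 11 were fibrillar chains and 27 were of other kinds. Members were taken by name, so their levels did not choose them.

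Collagen chains wind around each other in the endoplasmic reticulum and are then trimmed and cross-linked outside the cell. Type IV chains form the sheet-like network under endothelium and around astrocyte end-feet, and in a healthy brain fibrillar collagen lies mainly in the meninges and around larger vessels. Beaded-filament collagen VI links basement membranes to the surrounding matrix, and FACIT collagens (those with interrupted helices) sit on fibril surfaces. Cerebral cavernous malformations, which follow loss of Pdcd10 from endothelium, are clusters of dilated and leaky vessels whose walls hold collagen IV.

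The data were Visium spatial transcriptomes, in which each barcoded spot of a slide captures the 3′ ends of transcripts from a small piece of tissue that can hold several cells. There were 2 control and 2 knockout libraries from the brains of mice at postnatal day 65. Controls were Pdcd10fl/fl littermates without Cre, and knockouts were Slco1c1-iCreERT2;Pdcd10fl/fl, in which a tamoxifen-driven Cre under the Slco1c1 promoter acts in brain endothelium. Both groups carried the floxed allele. Per the series' design text, 50 µg of 4-hydroxy-tamoxifen was injected into the stomach on day 1, and 10 µm sections were cut from fresh-frozen tissue. The labels conflict on oxygen: titles and design text say normoxia, the treatment field says hypoxia for both knockouts and normoxia for both controls, and the treatment protocol gives 12% oxygen for 2 days for all 4 libraries. If the treatment field holds, oxygen and genotype cannot be told apart. The labels do not say whether libraries of the same group are from different animals. The p-values below therefore rest on the spread between libraries alone, and this spread may be technical. The tests also pool the estimate of this spread over genes.

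Libraries held 50148764 to 74467027 UMIs (unique transcript counts), and spots with at least 1000 UMIs numbered 2931, 4096, 4599 and 4472 in control 1, control 2, knockout 1 and knockout 2, the order used for all sets of 4 values. Median depth of these spots was 15326, 16226.5, 8158 and 13164.5 UMIs. All libraries share their 4992 barcodes by design of the slide, and totals per barcode correlated at 0.631 between the controls and 0.507 between the knockouts, against -0.02 to 0.10 between groups (a description over barcodes). Pdcd10 itself stood at 90.9, 82.3, 80.3 and 83.0 CPM (UMIs scaled to library size), and did not pass the test between groups (adjusted p = 0.410, edgeR's quasi-likelihood test). Cre was directed to brain endothelium and the deleted exons are not given in the labels, so a whole-section level does not check them. The 9 myelin genes of the oligodendrocyte list summed to 3453 to 12147 CPM in these brain sections. The pituitary genes summed to 221 and 89.2 CPM in the controls against 6.79 and 6.72 CPM in the knockouts, and choroid plexus genes to 132 and 57.2 against 17.5 and 17.9 CPM. Spots rich in pituitary genes numbered 223, 358, 13 and 3.

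Over whole sections, the collagen family as a whole stood higher in the knockouts, and most of the difference lay in type IV collagen. Collagen UMIs summed to 259, 267, 365 and 413 CPM, a mean of 263 ± 5.88 CPM in controls and 389 ± 33.6 CPM in knockouts (SD, n = 2 each), scaled to library size and not divided by transcript length. Basement-membrane chains summed to 48.3, 53.4, 145 and 150 CPM, with both knockouts far above both controls. Fibrillar chains summed to 70.5, 78.0, 65.7 and 81.9 CPM, and the groups overlapped. All other collagens summed to 140, 136, 154 and 181 CPM, the knockouts being higher by 1.21-fold on the means. Type IV chains thus took 18.6% and 19.98% of all collagen UMIs in controls and 39.8% and 36.4% in knockouts. In such sums fewer cells of a type and less RNA per cell cannot be told apart.

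Of 43 collagen genes with enough counts to test, 17 were higher and 9 lower in the knockouts at an adjusted p below 0.05 (edgeR's quasi-likelihood test, Benjamini-Hochberg over all genes), and 17 were not called. Among all 17546 genes tested, 38.4% were called, 20.1% higher and 18.3% lower, so the collagens' 20.9% lower lay near the background and their 39.5% higher lay above it. The median log2 fold change (knockout over control) was 0.24 over the collagens and -0.00082 over all genes. Basement-membrane chains had 4 of 6 higher and none lower, with a median of 1.23. Fibrillar chains had 3 of 11 higher and 4 lower, with a median of -0.33, and other collagens had 10 of 26 tested higher and 5 lower, with a median of 0.29. The libraries of the groups did not overlap for 32 of 44 collagens, 17 with both knockouts above and 15 with both below, beside 72.5% of all genes tested. Col28a1, at 4 to 10 UMIs a library, was the gene left untested.

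**Figure D1:**
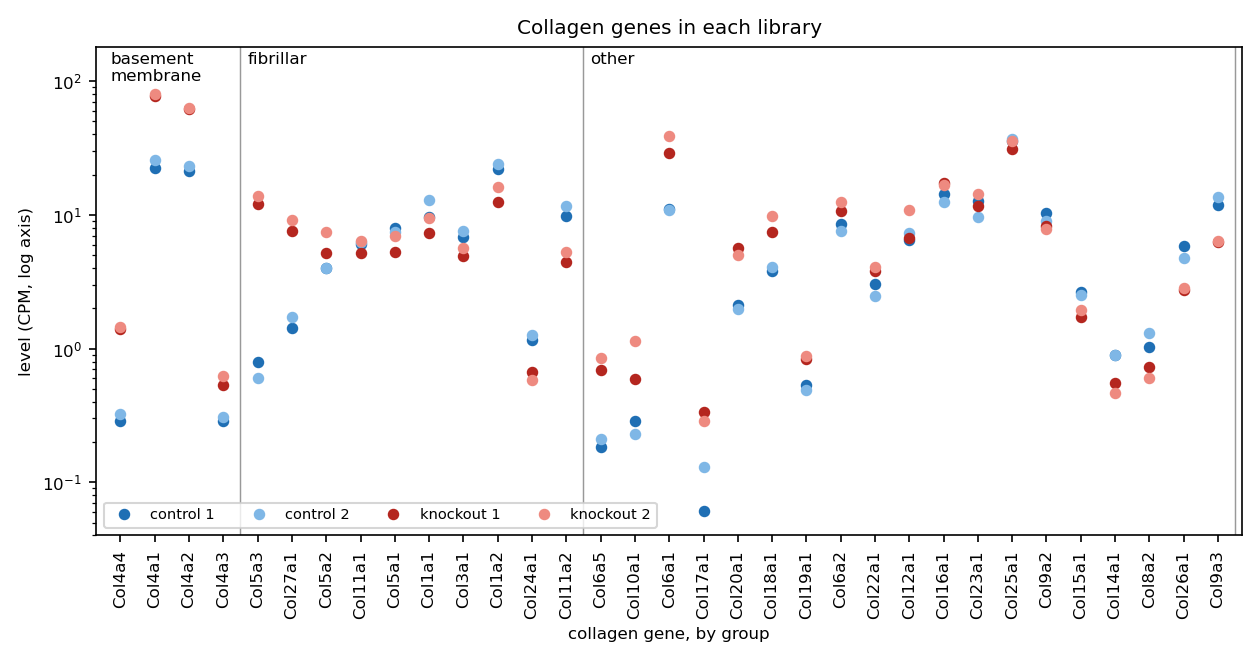
Level of each collagen with a mean of at least 5 CPM or an adjusted p below 0.05, as CPM on a log axis; each point is a library (blue controls, red knockouts) and vertical lines part basement-membrane, fibrillar and other collagens. Both knockouts sit far above both controls for Col4a1, Col4a2, Col5a3, Col27a1 and Col6a1, and below them for Col11a2 and Col9a3.

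Col4a1 and Col4a2, the chains of the type IV network found in nearly all basement membranes, rose together. Col4a1 stood at 22.4, 25.6, 77.3 and 80.7 CPM. Col4a2 stood at 21.4, 23.0, 62.2 and 62.5 CPM. Both genes were the most abundant collagens of the knockouts, and no knockout value came near a control value. Col4a1 rose 3.29-fold (log2 1.72, SE 0.08, adjusted p = 2.09e-05, edgeR) and Col4a2 2.80-fold (log2 1.49, SE 0.07, adjusted p = 1.70e-05). The genes lie head to head on opposite strands of chromosome 8, and the starts on which their promoter windows are set are 21 bases apart. By the gene annotation Col4a1 reaches to base 11312889, beyond the start of its window setting, and Col4a2 begins at base 11312805. Their promoter windows (250 bases before to 50 after the start, RefSeq, GRCm38.p6, the same build as mm10) therefore share 78 bases, and these are shown because the pair is read from common DNA. Capitals mark the shared bases, which are the reverse complement of each other; Col4a1 is chr8:11312777-11313076 on the minus strand and Col4a2 is chr8:11312555-11312854 on the plus strand.
Col4a1: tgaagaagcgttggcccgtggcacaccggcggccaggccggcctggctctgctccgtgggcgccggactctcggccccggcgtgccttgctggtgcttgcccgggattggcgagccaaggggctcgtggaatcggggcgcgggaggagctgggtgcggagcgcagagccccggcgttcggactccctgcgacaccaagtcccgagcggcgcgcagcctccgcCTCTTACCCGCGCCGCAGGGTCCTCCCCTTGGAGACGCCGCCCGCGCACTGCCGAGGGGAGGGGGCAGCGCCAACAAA
Col4a2: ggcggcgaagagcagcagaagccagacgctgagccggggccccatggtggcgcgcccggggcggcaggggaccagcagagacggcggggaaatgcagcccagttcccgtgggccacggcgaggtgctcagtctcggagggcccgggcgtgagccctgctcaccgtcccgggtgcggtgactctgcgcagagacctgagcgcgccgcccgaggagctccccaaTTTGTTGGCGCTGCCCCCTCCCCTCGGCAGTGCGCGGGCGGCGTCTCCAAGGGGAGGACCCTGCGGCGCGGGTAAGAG

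The type IV chains best known from kidney filtration, Col4a3 and Col4a4, were scarce. Col4a4 was counted 14, 20, 76 and 112 times, which is 0.287, 0.325, 1.41 and 1.46 CPM. It was 4.64-fold higher in the knockouts (log2 2.21, SE 0.24, adjusted p = 0.000624, edgeR). Col4a3 was counted 14, 19, 29 and 48 times, or 0.287, 0.309, 0.538 and 0.624 CPM. Its log2 difference of 0.96 (SE 0.29, adjusted p = 0.0341, edgeR) lost its call in DESeq2 (adjusted p = 0.251) and with each of the 4 libraries left out. Col4a5 (3.07, 2.88, 2.71 and 3.50 CPM) and Col4a6 (0.839, 1.27, 1.06 and 1.20 CPM), which pair in smooth muscle basement membrane, overlapped between groups, with log2 differences of 0.07 (SE 0.17) and 0.09 (SE 0.25) that were not called.

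Among fibrillar collagens, Col5a3 had the largest change of the family. This chain of collagen V, the collagen that starts and thins type I fibrils, was counted 39 and 37 times in the controls and 651 and 1068 times in the knockouts, or 0.798, 0.602, 12.1 and 13.9 CPM. It was 18.7-fold higher (log2 4.23, SE 0.17, adjusted p = 8.88e-06, edgeR). The other chains of collagen V moved apart from it. Col5a2 stood at 4.03, 3.99, 5.17 and 7.46 CPM and was 1.59-fold higher (adjusted p = 0.0259; 0.160 without knockout 2), while Col5a1 stood at 7.94, 7.44, 5.23 and 6.97 CPM and was not called (log2 -0.33, SE 0.15, adjusted p = 0.125; 0.0190 without knockout 2). Col27a1, a fibrillar chain known from cartilage, stood at 1.43, 1.71, 7.53 and 9.07 CPM. It was 5.26-fold higher (log2 2.40, SE 0.16, adjusted p = 8.50e-05). Col5a3 and Col27a1 were thus near 1 CPM in both controls and several-fold higher in both knockouts.

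Promoter windows of Col5a3 (chr9:20815018-20815317, minus strand) and Col27a1 (chr4:63215162-63215461, plus strand) are given because these genes had the largest rises of the family. By the gene annotation Col27a1 begins at base 63214009, so its window lies within the annotated gene and not at its outermost start. Capitals mark GC boxes (GGGCGG on either strand), of which the Col5a3 window held 3 and the Col27a1 window 2.
Col5a3: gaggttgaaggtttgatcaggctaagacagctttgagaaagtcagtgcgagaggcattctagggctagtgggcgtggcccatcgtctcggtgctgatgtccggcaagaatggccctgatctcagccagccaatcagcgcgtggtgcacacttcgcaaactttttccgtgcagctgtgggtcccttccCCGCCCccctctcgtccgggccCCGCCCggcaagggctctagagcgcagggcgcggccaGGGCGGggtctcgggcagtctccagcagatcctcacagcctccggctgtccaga
Col27a1: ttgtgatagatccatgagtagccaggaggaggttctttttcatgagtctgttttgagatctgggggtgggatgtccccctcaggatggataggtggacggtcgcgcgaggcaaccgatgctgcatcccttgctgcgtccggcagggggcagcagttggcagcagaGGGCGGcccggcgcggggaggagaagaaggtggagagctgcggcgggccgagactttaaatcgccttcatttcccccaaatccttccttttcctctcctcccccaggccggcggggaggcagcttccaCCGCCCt
Windows were listed for 35 of the 44 collagens, 38 windows in all. A GC box was present in 23 of the 38, against 35.66% of 32851 windows of all genes. The CCAAT box (CCAAT) was present in 13 against 37.41%, the TATA box (TATAAA) in 5 against 13.62%, and the AP-1 motif TGANTCA in 1 against 7.808%, each on both strands. These are matches of letters and not measured sites.

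The classical interstitial collagens went the other way or were not called. Col1a1 stood at 9.58, 12.8, 7.36 and 9.47 CPM, with both knockouts just below the lower control, and was not called (log2 -0.41, SE 0.17, adjusted p = 0.0957, edgeR). Its partner chain Col1a2 stood at 22.1, 24.1, 12.4 and 16.3 CPM and was lower by 0.69 on the log2 scale in the fit (-0.69, SE 0.13, adjusted p = 0.00615). Col3a1, the collagen of reticular fibres, stood at 6.82, 7.58, 4.92 and 5.61 CPM (log2 -0.45, SE 0.12, adjusted p = 0.0258). Col3a1 lost its call without control 2 (adjusted p = 0.0726) or knockout 1 (0.119), and Col1a1 gained one without control 1 (0.0048) or knockout 2 (0.0101). The calls of Col3a1 and Col1a2 ended when spots rich in pituitary or choroid plexus genes, or those richest in leptomeningeal genes, were left out. Without spots rich in pituitary or choroid plexus genes (223, 363, 13 and 3 spots), Col3a1 stood at -0.09 (adjusted p = 0.750) and Col1a2 at -0.38 (adjusted p = 0.112). Without the spots richest in leptomeningeal genes, Col3a1 stood at -0.0036 (adjusted p = 0.990) and Col1a2 at -0.30 (adjusted p = 0.0854). Beside these, 8 of 12 leptomeningeal marker genes were lower and 1, Igfbp2, was higher, with a median log2 of -1.0 and sums of 257, 241, 313 and 294 CPM carried by Igfbp2. Of 9 perivascular fibroblast markers 2 were lower and none was higher. Their part in the collagen values was not tested.

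The remaining fibrillar chains are best known from cartilage and bone. Col11a2 stood at 9.81, 11.6, 4.41 and 5.303 CPM, both knockouts lying far below both controls. It fell by 1.14 on the log2 scale (SE 0.14, adjusted p = 0.000996, edgeR). It was also called lower without the spots rich in pituitary or choroid plexus genes, and without those richest in leptomeningeal genes. Its partner Col11a1 stood at 6.08, 6.25, 5.21 and 6.39 CPM and overlapped (log2 -0.08, SE 0.13). Col24a1 stood at 1.17, 1.25, 0.668 and 0.585 CPM and was lower (log2 -0.96, SE 0.22, adjusted p = 0.0128), a call that was lost in DESeq2 (adjusted p = 0.0739) and without knockout 2 (0.0682). Col2a1 stayed at 0.618 to 0.923 CPM and overlapped.

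**Figure D2:**
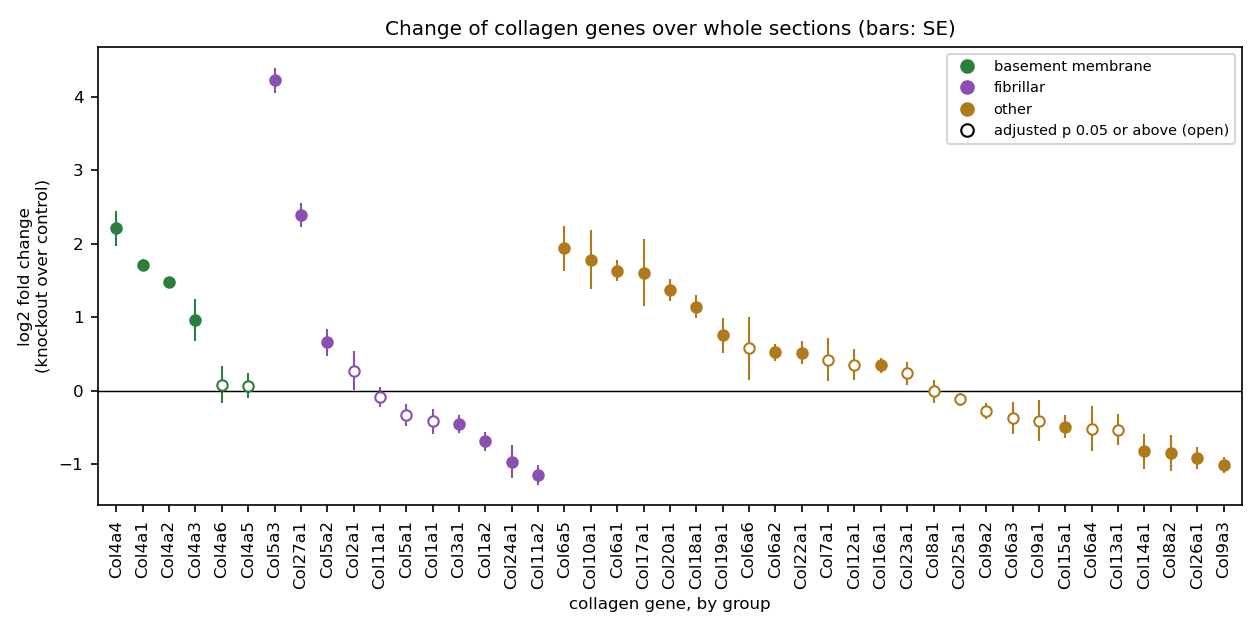
Log2 fold change of each tested collagen (knockout over control, edgeR) over whole sections, coloured by group, with bars of 1 standard error; filled points have an adjusted p below 0.05. Col4a1 and Col4a2 have short bars well above 0, Col5a3 is highest at 4.23, and fibrillar genes reach down to -1.14.

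Collagen VI had 3 of its 6 genes called higher and none lower. Col6a1 stood at 11.1, 10.95, 29.2 and 39.1 CPM, with both knockouts far above the closely matched controls. It rose 3.11-fold (log2 1.64, SE 0.14, adjusted p = 0.000219, edgeR). Col6a2, which is needed with Col6a1 in every collagen VI molecule, stood at 8.50, 7.57, 10.7 and 12.4 CPM and was 1.44-fold higher (adjusted p = 0.0109; 0.0511 without knockout 2). Col6a5, an alternative partner chain, was counted 9, 13, 37 and 65 times (0.184, 0.212, 0.686 and 0.845 CPM) and was 3.85-fold higher (adjusted p = 0.00311). The usual partner Col6a3 stood at 1.66, 2.16, 1.28 and 1.68 CPM and overlapped (log2 -0.36, SE 0.22), and Col6a4 and Col6a6 stayed below 0.6 CPM and were not called. Col6a1 and Col6a2 lie on the same strand of chromosome 10 with starts 102414 bases apart. The Col6a1 window (chr10:76725995-76726294, minus strand) is shown as a contrast to the pair on chromosome 8 and to Col5a3: it held no GC box and was the 1 collagen window with the AP-1 motif, in capitals.
Col6a1: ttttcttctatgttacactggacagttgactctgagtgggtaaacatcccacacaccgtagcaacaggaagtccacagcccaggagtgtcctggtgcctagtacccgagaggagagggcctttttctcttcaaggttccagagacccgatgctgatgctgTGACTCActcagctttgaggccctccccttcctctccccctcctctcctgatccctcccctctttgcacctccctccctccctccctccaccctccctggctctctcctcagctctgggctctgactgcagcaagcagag

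The multiplexins, basement-membrane-associated collagens that carry endostatin-like ends, split. Col18a1 stood at 3.79, 4.05, 7.46 and 9.86 CPM and was 2.21-fold higher (log2 1.15, SE 0.16, adjusted p = 0.00174, edgeR). Col15a1 stood at 2.64, 2.51, 1.72 and 1.94 CPM, both knockouts below both controls. Its difference of -0.48 (SE 0.16, adjusted p = 0.0481) had the highest adjusted p of the 9 lower calls and was lost with each of the 4 libraries left out and in DESeq2 (adjusted p = 0.185).

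Among the 9 FACIT collagens 4 were higher and 2 lower. Col20a1 stood at 2.11, 1.99, 5.66 and 4.96 CPM and was 2.59-fold higher (log2 1.37, SE 0.14, adjusted p = 0.000543, edgeR). Col16a1 stood at 14.4, 12.4, 17.3 and 16.7 CPM, a 1.27-fold difference (adjusted p = 0.0273; 0.0839 without control 2 and 0.0813 without knockout 1). Col22a1, known from muscle-tendon junctions, stood at 3.05, 2.46, 3.78 and 4.08 CPM, and Col19a1 at 0.532, 0.488, 0.835 and 0.884 CPM. These smaller calls were less steady: Col22a1 (log2 0.52, SE 0.16, adjusted p = 0.0347) and Col19a1 (log2 0.76, SE 0.24, adjusted p = 0.0404) were not called by DESeq2 (adjusted p = 0.0949 and 0.264). Col22a1 was also lost without control 2 or knockout 2, and Col19a1 without any of the 4. On the lower side, Col9a3, a chain of the cartilage collagen IX, stood at 11.8, 13.5, 6.29 and 6.36 CPM. It fell by 1.004 on the log2 scale (SE 0.11, adjusted p = 0.000572), and both knockouts lay well below both controls. Its partner Col9a2 stood at 10.4, 8.98, 8.24 and 7.82 CPM and was not called (log2 -0.27, SE 0.11, adjusted p = 0.0904; 0.0318 without control 2). Col14a1, which decorates type I fibrils, stood at 0.901, 0.895, 0.556 and 0.468 CPM (log2 -0.82, SE 0.24, adjusted p = 0.0320) and lost its call with each library left out. Col12a1 stood at 6.53, 7.26, 6.75 and 10.8 CPM, where knockout 2 alone was high, and was not called (log2 0.36, SE 0.21; 0.65 without knockout 1 and -0.03 without knockout 2).

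Of the 9 tested members of the short-chain, transmembrane and remaining families 4 were called, 2 higher and 2 lower, beside the 38.4% of all genes given above. The membrane-spanning Col25a1, made by neurons, was the most abundant collagen of the controls at 35.7, 37.0, 31.2 and 35.9 CPM, and its groups overlapped (log2 -0.11, SE 0.08, adjusted p = 0.315, edgeR). With the same number of spots drawn per library from each regional list described below, it was called lower (log2 -0.34, adjusted p = 0.00641), but not where the regional scores were set within each library. Col23a1, also membrane-spanning, stood at 12.6, 9.59, 11.7 and 14.4 CPM and overlapped (log2 0.24, SE 0.15, adjusted p = 0.257; 0.0199 without control 1). Col17a1, the hemidesmosome collagen, was counted only 3, 8, 18 and 22 times (0.0614, 0.130, 0.334 and 0.286 CPM; log2 1.61, SE 0.45, adjusted p = 0.0283) and was lost in DESeq2 (adjusted p = 0.181) and without control 1, knockout 1 or knockout 2. Among the short-chain collagens, Col10a1, known from growth-plate cartilage, was counted 14, 14, 32 and 87 times (0.287, 0.228, 0.594 and 1.13 CPM) and was 3.45-fold higher (log2 1.79, SE 0.40, adjusted p = 0.0120; 0.0639 without knockout 2). When spots were thinned to 5000 UMIs, 1 spot of knockout 2 held 23 of its UMIs, and no spot of the other libraries held more than 1. Col8a2 stood at 1.02, 1.32, 0.723 and 0.598 CPM and was lower (log2 -0.85, SE 0.24, adjusted p = 0.0300), with no call in DESeq2 (adjusted p = 0.134) or without control 2 or knockout 2 (0.142 each). Col26a1 stood at 5.88, 4.74, 2.76 and 2.85 CPM and fell by 0.91 on the log2 scale (SE 0.15, adjusted p = 0.00367), both knockouts being well below both controls. Collagens not named here with values were Col6a4, Col6a6, Col7a1, Col8a1, Col9a1 and Col13a1, none called, with log2 values from -0.53 to 0.58.

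Ratios between pairs of collagen genes, which do not depend on library scaling, moved in several pairs. The Col6a1 to Col6a2 ratio of UMIs was 1.30 and 1.45 in controls and 2.74 and 3.16 in knockouts. The Col5a1 to Col5a2 ratio was 1.97 and 1.87 against 1.01 and 0.934, and Col15a1 to Col18a1 was 0.697 and 0.618 against 0.231 and 0.196. Col4a1 to Col4a2 shifted far less, from 1.04 and 1.11 to 1.24 and 1.29. Col4a3 to Col4a4 went from 1.00 and 0.950 to 0.382 and 0.429 on the low counts given above, and Col9a3 to Col9a2 from 1.14 and 1.51 to 0.764 and 0.812. Col1a1 to Col1a2 was 0.433 and 0.531 against 0.593 and 0.583, and Col3a1 to Col1a1 overlapped between groups. These ratios were not tested.

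**Figure D3:**
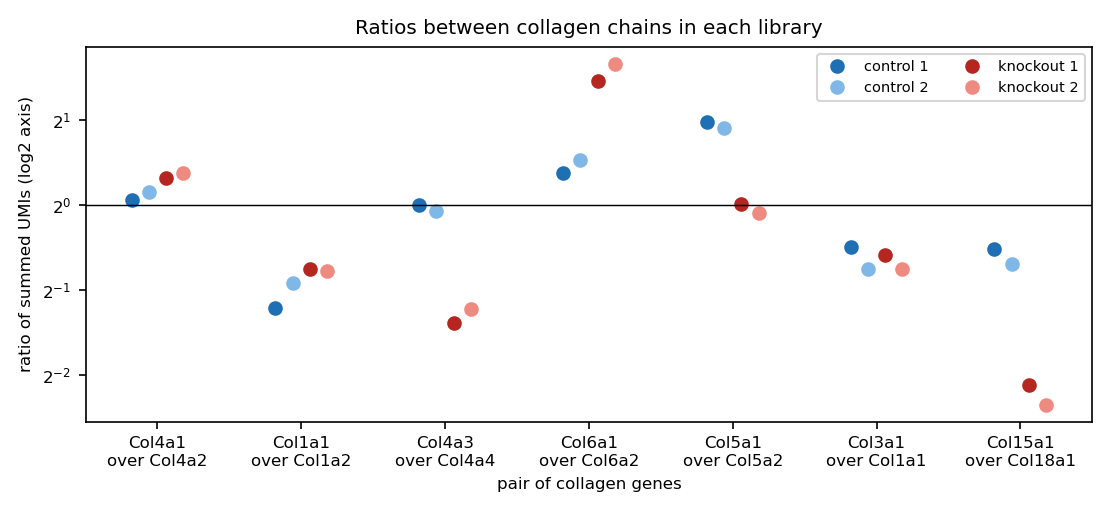
Ratio of summed UMIs between 7 pairs of collagen genes in each library on a log2 axis (blue controls, red knockouts). The points of the groups lie far apart for Col6a1 over Col6a2, Col5a1 over Col5a2, Col4a3 over Col4a4 and Col15a1 over Col18a1, and close together for Col4a1 over Col4a2.

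Calls were steadier for some members than for others. Of the 17 higher calls, 9 (Col4a1, Col4a2, Col4a4, Col5a3, Col27a1, Col6a1, Col6a5, Col18a1 and Col20a1) held under every alternative in which the gene was tested. Of the 9 lower calls, 3 (Col9a3, Col26a1 and Col11a2) held under all of them. DESeq2 called 13 of the 17 and 5 of the 9. Without knockout 2, the number of higher calls among all collagens dropped to 10. The share of all called genes that held under the same alternatives was not counted. These counts therefore compare collagens with each other and not with other genes.

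Genes that modify, process, bind or degrade collagen were read from the same fit, where the background was again 20.1% higher and 18.3% lower. Of 19 enzymes and chaperones that act on new chains, 6 were higher and 3 lower, with a median log2 of 0.07. P4ha3, a prolyl hydroxylase subunit, went from 3.398 and 4.75 to 10.3 and 9.23 CPM (2.37-fold, adjusted p = 0.00147, edgeR). The lysyl hydroxylase gene Plod2 (1.43-fold, adjusted p = 0.0146) and the chaperone gene Fkbp14 (1.44-fold, adjusted p = 0.00305) were higher, and P3h4, a partner of lysyl hydroxylase, was lower (log2 -0.43, adjusted p = 0.00733). Serpinh1, the collagen-specific chaperone, is named after its values were seen and was not called (20.7, 25.6, 23.0 and 21.7 CPM, adjusted p = 0.707).

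Extracellular processing and cross-linking had more higher calls, 8 of 13 tested with 1 lower and a median of 0.58. The lower gene, Pcolce, an enhancer of C-proteinase named after its values were seen, stood at 9.50, 10.5, 6.68 and 7.71 CPM. Lox, which cross-links fibrils, was counted 19, 49, 213 and 339 times and was 6.86-fold higher (log2 2.78, SE 0.27, adjusted p = 0.000427, edgeR). Bmp1, the C-proteinase that trims fibrillar chains, stood at 24.95, 24.1, 41.0 and 44.5 CPM, 1.74-fold higher (adjusted p = 0.000281). Adamts14, an N-proteinase, was counted 15, 19, 60 and 125 times and was 4.47-fold higher (adjusted p = 0.00172). Loxl4 was counted 0 and 0 times in controls and 14 and 18 times in knockouts.

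Collagen receptors split, with 3 of 10 tested higher and 2 lower and a median of -0.13. Itgb1 (44.6, 49.5, 63.9 and 63.0 CPM), the common chain of collagen-binding integrins, was 1.35-fold higher (adjusted p = 0.00433, edgeR) and its partner Itga1 1.38-fold higher (adjusted p = 0.0172). The endocytic receptor gene Mrc2 (4.36, 4.87, 1.85 and 2.30 CPM) fell by 1.14 on the log2 scale (adjusted p = 0.00192), and Itga10 by 0.55 (adjusted p = 0.0446). Of 8 tested collagen-degrading enzymes 5 were higher and 1 lower, with a median of 0.57. Ctsl stood at 179, 180, 351 and 340 CPM (1.92-fold, adjusted p = 0.000144). Mmp9 was 1.80-fold higher (adjusted p = 0.00711), Mmp8 was counted 0, 3, 38 and 61 times, and Mmp2 (2.58, 3.32, 1.69 and 1.62 CPM) was lower (log2 -0.84, adjusted p = 0.0105).

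Markers of other cells that moved beside the collagens are given here once. Of 14 endothelial markers 12 were higher, with sums of 282, 295, 640 and 609 CPM, all 10 reactive astrocyte markers were higher (136, 158, 1350 and 1276 CPM), 10 of 11 phagocyte markers were higher (89.3, 98.5, 291 and 293 CPM), and all 9 oligodendrocyte markers were lower. Pericyte markers had 3 of 9 higher and 1 lower (175, 197, 218 and 207 CPM). Smooth muscle markers had 4 of 8 higher, lesion endothelium markers 6 of 9, general astrocyte markers 3 of 8, and none of these lists had a lower gene. Ependymal markers had 2 of 6 higher and 2 lower, erythrocyte genes 2 of 5 higher and 1 lower, choroid plexus genes 1 of 8 higher and 2 lower, and all 6 tested pituitary genes were lower. Of 7 tested bone and cartilage markers 3 were higher and 1 lower (28.5, 37.6, 62.2 and 56.9 CPM), while the defining Ibsp and Bglap stayed below 0.4 CPM. The part of these cells in the collagen values was not tested.

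To see where collagens were read, spots were classed by marker genes that include no collagen. Each class was at most the 10% of a library's spots with the highest share of UMIs from the markers, with at least 2 marker UMIs. That minimum left some classes smaller, mostly in controls: lesion endothelium spots were 6.93%, 4.83%, 9.65% and 9.59% of spots, endothelial spots 8.12%, 5.98%, 10.0% and 10.0%, and smooth muscle spots 5.31% to 7.07%. The classes overlap because spots mix cells: 21.2% to 26.6% of endothelial spots were also leptomeninges spots. Class spots were often shallower than the rest, for leptomeninges 5800, 6134.5, 3378 and 5275 median UMIs against 15981.5, 16772.5, 9093 and 14046. Summed counts of class spots were compared with the remaining spots of the same libraries. Library was a block in these fits, so differences in level between libraries do not enter their p-values. These p-values rest on the spread of the class-to-rest difference between libraries, estimated in part over all genes. Very small values are thus not evidence from the libraries of 1 gene alone. Collagens were higher in 20 and lower in 1 of 42 tested in endothelial spots, where 15.6% of all genes were higher and 13.3% lower. They were higher in 19 and lower in none of 41 in leptomeninges spots (background 13.7% and 14%), 18 and none of 42 in smooth muscle spots (14.5% and 12.5%), 21 and none of 42 in spots rich in lesion endothelium genes such as Angpt2 and Plvap (14.4% and 13.5%), 26 and 2 of 42 in reactive astrocyte spots (22.3% and 24.8%, 47% together) and 23 and 1 of 41 in phagocyte spots (16.5% each way). Oligodendrocyte spots were the reverse, with 5 higher and 17 lower of 41 (24.3% and 27.5%).

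The interstitial collagens were concentrated in border spots. In leptomeninges spots Col1a1 stood at 70.1, 72.9, 28.1 and 58.7 CPM against 5.28, 8.18, 6.49 and 7.39 CPM elsewhere, so every library was higher in the class (log2 3.05, SE 0.14, adjusted p = 1.34e-09, edgeR). Col1a2 (3.06, SE 0.17) and Col3a1 (3.15, SE 0.19) had like values. These spots held 47.9% and 37.9% of Col1a1 UMIs in controls and 16.9% and 28.4% in knockouts, beside 4.47% to 6.46% of all UMIs. The class was not led by the same markers in both groups: over whole sections Dcn went from a mean of 112 to 50.1 CPM and Igfbp2 from 46.1 to 193 CPM, while 8 of its 12 markers were lower. The part of this in the shares, here and for Col6a1 below, was not tested. The knockouts also differed between themselves: endothelial spots held 17.1% of Col1a1 UMIs in knockout 1 and 41.6% in knockout 2, against 25% and 26.1% in the controls.

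Basement-membrane collagen was spread more widely. In endothelial spots Col4a1 stood at 44.6, 45.9, 201 and 229 CPM, and at 20.9, 23.7, 71.6 and 73.7 CPM in the remaining spots. The class was higher in every library (log2 1.32, SE 0.07, adjusted p = 1.74e-14, edgeR), but the knockouts' remaining spots also lay above the controls' endothelial spots. Endothelial spots held 10.4%, 8.32%, 13.2% and 17.8% of Col4a1 UMIs. Col4a2 stood at 35.6, 36.4, 164 and 185 CPM in endothelial spots (log2 over the rest 1.22, SE 0.08). Its genotype difference was larger there than elsewhere by 0.84 on the log2 scale (SE 0.15, adjusted p = 0.00265), the 1 collagen with such an interaction in endothelial spots, beside 0.519% of all genes called and 0.324% called higher; Col4a1 did not pass (0.54, adjusted p = 0.0718). Without spots under 5000 UMIs the Col4a2 call was lost (adjusted p = 0.0552). In smooth muscle spots no collagen had an interaction at this threshold (edgeR; 0.264% of all genes, 0.0882% higher). In lesion endothelium spots both had an interaction (Col4a2 0.87, SE 0.15, adjusted p = 0.00282; Col4a1 0.64, SE 0.14, adjusted p = 0.0214), 2 of 42 beside 0.677% of all genes called and 0.368% called higher, and neither kept it without control 1 (adjusted p = 0.239 and 0.585). Col4a1 also lost it without control 2 (log2 0.76) or knockout 2 (log2 0.48), and in the top 5% of spots (log2 0.38, adjusted p = 0.923, edgeR). Col18a1 was higher in endothelial spots as well (11.7, 13.3, 14.6 and 41.7 CPM; log2 over the rest 1.90, SE 0.19). The marker sum that defines endothelial spots stood there at 869, 879, 2162 and 2521 CPM, against 246, 256, 566 and 500 CPM elsewhere. That of lesion endothelium spots stood at 495, 455, 1354 and 1589 CPM, against 110, 113, 293 and 271 CPM elsewhere. The part of these sums in the collagen values was not tested.

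**Figure D4:**
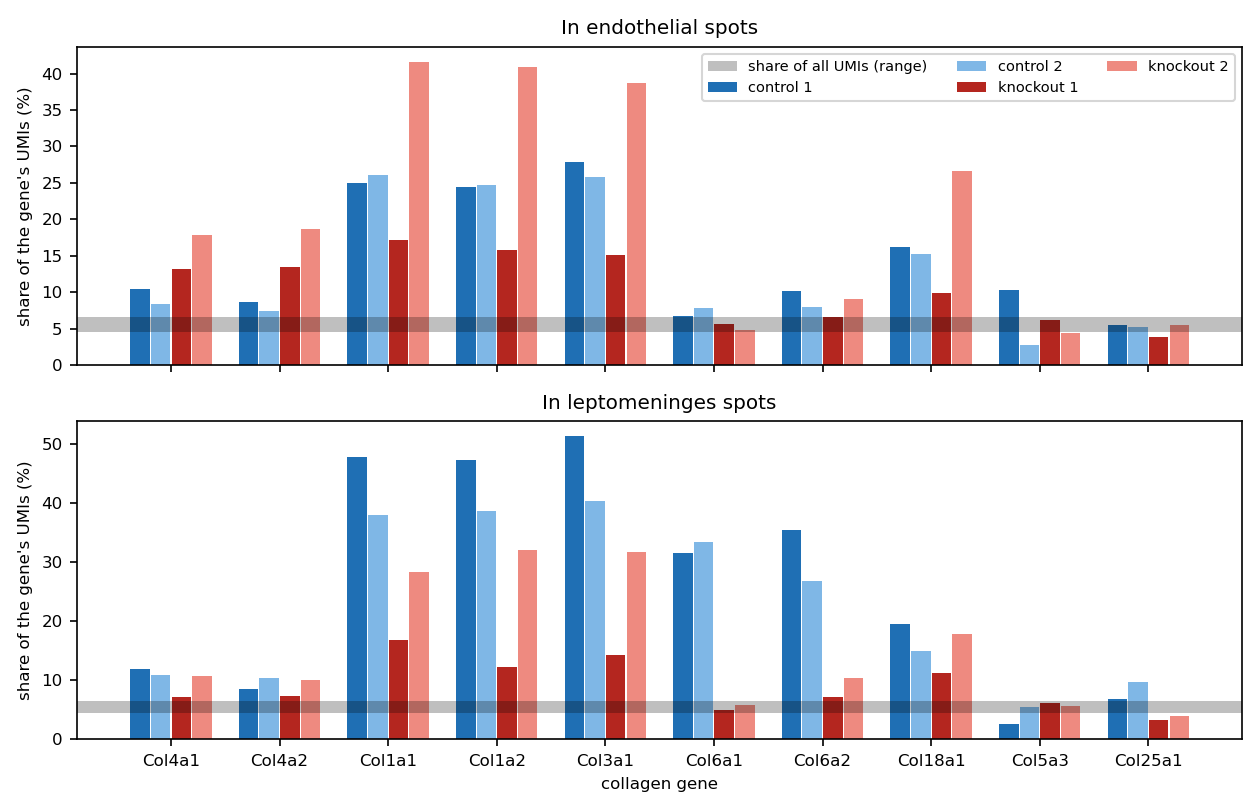
Share of each gene's UMIs that lay in endothelial spots (top) and leptomeninges spots (bottom), in percent for each library; the grey band spans the share of all UMIs in those spots over the 4 libraries. Bars of Col1a1, Col1a2 and Col3a1 reach above the band in both classes, Col6a1 is far above it in leptomeninges spots of the controls only, and Col25a1 and Col5a3 lie mostly near it.

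Col6a1 differed between groups in where it was read. In controls it stood at 53.2 and 54.9 CPM in leptomeninges spots and 8.0 and 7.49 CPM elsewhere. In knockouts it stood at 32.3 and 49.4 CPM there and 29.5 and 40.2 CPM elsewhere. Leptomeninges spots thus held 31.5% and 33.4% of Col6a1 UMIs in controls and 4.89% and 5.78% in knockouts, and the higher whole-section level lay in spots outside this class, whose leading markers differed between groups as given above. The interaction was -2.54 on the log2 scale (SE 0.15, adjusted p = 2.03e-07, edgeR). Col6a2 had an interaction of -1.67 (SE 0.25, adjusted p = 0.000848), Col23a1 of -1.20 and Col25a1 of -0.70 (SE 0.27 and 0.19; both lost without control 2), the 4 of 41 collagens called, beside 6.65% of all genes. Within leptomeninges spots alone Col6a1 was not called between genotypes. Oligodendrocyte spots were poor in it (2.55, 3.84, 6.04 and 7.84 CPM against 11.6, 11.5, 32.7 and 43.8 CPM elsewhere; log2 -2.01, SE 0.11, adjusted p = 8.12e-22).

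Col5a3 and Col27a1 were not called higher in any of the 7 classes. Col5a3 in the knockouts stood at 14.6 and 9.71 CPM in endothelial spots and 12.1 and 14.7 CPM elsewhere, and it was not called between class and rest in any of the 7 classes over both genotypes. In the knockouts alone it was lower in oligodendrocyte spots (5.55 and 5.84 against 13.1 and 15.2 CPM; log2 -1.22, SE 0.19). Col27a1, named here after its values were seen, was called in oligodendrocyte spots alone of the 7, where it was lower (log2 -0.64, SE 0.23, adjusted p = 0.0156, edgeR). By contrast Col11a2 and Col9a3, both lower in knockouts, were higher in oligodendrocyte spots in every library. Col11a2 stood there at 24.3, 20.3, 8.49 and 9.68 CPM against 8.43, 9.87, 3.95 and 5.10 CPM (log2 1.23, SE 0.12, adjusted p = 7.36e-13), and Col9a3 at 24.3, 23.9, 9.31 and 9.99 CPM against 10.6, 11.4, 5.99 and 6.27 CPM (log2 0.99, SE 0.11). The 9 oligodendrocyte markers were all lower in knockouts as well. Within oligodendrocyte spots Col11a2 (log2 -1.34, SE 0.18) and Col9a3 (-1.39, SE 0.17) were lower in knockouts, and so was the marker sum that defines the class, which stood at 36941, 39396, 17554 and 15401 CPM. The part of this in the collagen values was not tested.

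Reactive astrocyte spots had the most collagens with an interaction, 1 higher and 14 lower of 42, beside 6.53% and 5.47% of all genes. Col1a2 stood there at 217, 177, 26.1 and 56.1 CPM, with both controls far above both knockouts, and its interaction was -2.06 (SE 0.15, adjusted p = 3.59e-27, edgeR). Col3a1 (-2.19, SE 0.25) and Col6a1 (-2.22, SE 0.19) had interactions of like size. Over whole sections Col6a1 was higher in knockouts (log2 1.64), while Col1a2 (-0.69) and Col3a1 (-0.45) were lower. Interactions of like size therefore need not be like changes within the class. What the class holds differed between groups. Its marker level was 1010 and 895 CPM in controls and 4444 and 4582 CPM in knockouts, and 40.7% and 32.1% of its spots were also leptomeninges spots in controls against 25.7% and 30.9% in knockouts. The part of this in the interaction was not tested.

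Within each class alone, knockouts were again compared with controls. The marker sums that define endothelial, lesion endothelium, reactive astrocyte and oligodendrocyte spots differed between groups, as given above. So did those of phagocyte spots (403, 359, 1434 and 1648 CPM) and smooth muscle spots (336, 309, 433 and 450 CPM), while that of leptomeninges spots overlapped. The part of these sums in the values within classes was not tested. Col4a1, Col4a2 and Col5a3 were called higher in all 7 classes. Log2 values ran from 1.29 to 2.30 for Col4a1, from 1.29 to 2.28 for Col4a2 and from 2.96 to 5.22 for Col5a3. All kept spots of the controls held only 39 and 37 Col5a3 UMIs, so its values within a class rest on few control UMIs. In endothelial spots 5 of 29 tested collagens were higher and 3 lower (background 8.95% and 7.6%), and in leptomeninges spots 6 of 29 were higher and 4 lower (12.6% and 9.75%). The figures were 7 and 3 of 30 in smooth muscle spots (8.24% and 6.5%), 6 and 6 of 28 in lesion endothelium spots (11.6% and 10.4%), 5 and 14 of 30 in reactive astrocyte spots (15.1% and 14.8%, 29.9% together), 8 and 6 of 30 in phagocyte spots (13.6% and 12.7%) and 7 and 5 of 28 in oligodendrocyte spots (13.8% and 15.8%). Col11a2 was called lower in all 7, from -1.21 to -2.23, though in leptomeninges spots not without control 2 (adjusted p = 0.335) or knockout 1 (0.0769). Col18a1 was higher in leptomeninges (log2 1.54, SE 0.31), lesion endothelium (1.69, SE 0.31), smooth muscle (1.13, SE 0.33) and phagocyte spots (1.10, SE 0.36). Without knockout 2 the last 3 of these were lost, with values of 0.85, 0.34 and 0.01.

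Spots of at least 5000 UMIs were also sorted by lists of regional genes and compared within each list. The white matter list, which is made of myelin genes, took 37.9% and 41.7% of such spots in controls and 16.5% and 12.6% in knockouts, a difference that moves with the myelin genes themselves. Col4a1 was called higher in all 7 lists, with log2 values from 1.05 (hypothalamus) to 2.20 (cortex). In cortex-list spots it stood at 17.9, 21.7, 93.7 and 99.6 CPM. Col4a2 (0.80 to 1.85) and Col5a3 (2.65 to 5.06) were also called in all 7. Col5a3 was highest in striatum-list spots of the knockouts, at 20.8 and 26.3 CPM, and lowest in thalamus-list spots, at 4.23 and 4.84 CPM, on 3, 0, 134 and 211 and on 1, 2, 19 and 29 UMIs. The striatum list took 90, 75, 391 and 377 spots (3.97%, 2.93%, 13.2% and 10.9% of such spots). It may therefore not hold the same tissue in both groups, and the part of this was not tested.

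Col6a1 was called higher in 6 of the 7 lists and stood highest in hippocampus-list spots (14.7, 16.9, 55.3 and 61.6 CPM). In thalamus-list spots it overlapped (14.5, 10.2, 6.91 and 16.2 CPM; log2 0.03). Col27a1 was called higher in 5 lists. Among genes lower over whole sections, Col11a2 was called lower in 5 lists and Col9a3 and Col26a1 in 4 each. Col1a2 was lower in 3 lists and Col3a1 in 2, led by the hypothalamus list, where Col1a2 stood at 70.0, 51.1, 8.99 and 14.2 CPM (log2 -2.39) and Col3a1 at 22.9, 22.1, 1.46 and 5.08 CPM (log2 -2.72). Pituitary genes were higher in both controls, as given above, and their part in this was not tested. In cortex-list spots Col1a2 (6.80, 13.6, 9.15 and 7.94 CPM) overlapped. Col25a1 fell in 2 lists, and in midbrain and hindbrain spots it stood at 93.0, 104, 37.6 and 40.1 CPM (log2 -1.42). That list took 92, 77, 415 and 456 spots (4.06%, 3.01%, 14.1% and 13.1% of such spots), so it may not hold the same tissue in both groups, and the part of this was not tested.

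By list, 15 collagens were higher and 5 lower of 38 in cortex spots (background 20.9% and 20%), 10 and 3 of 32 in hippocampus spots (16% and 14.4%), 5 and 11 of 29 in hypothalamus spots (10.6% and 9.3%), 5 and 4 of 26 in midbrain and hindbrain spots (5.3% and 6.95%), 7 and 1 of 25 in striatum spots (10.1% and 9.97%), 4 and 3 of 27 in thalamus spots (9.13% and 9.6%) and 7 and 7 of 33 in white matter spots (16.1% and 14.5%). Differences between lists were not tested.

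**Figure D5:**
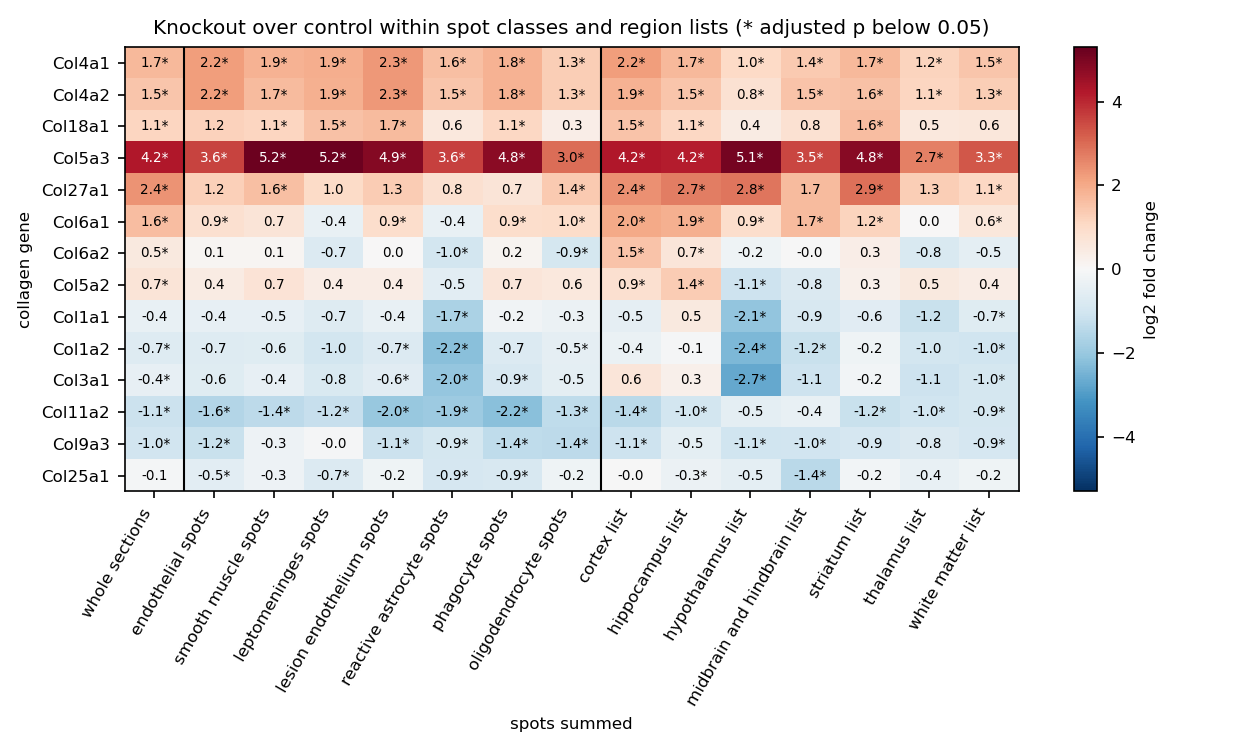
Log2 fold change of 14 collagens (knockout over control) over whole sections, within the 7 marker classes and within the 7 region lists; red is higher in knockouts, blue lower, and a star marks an adjusted p below 0.05 in that fit. The rows of Col4a1, Col4a2 and Col5a3 are red and starred throughout, while Col1a1, Col1a2 and Col3a1 are darkest blue in reactive astrocyte and hypothalamus spots.

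At a common depth the share of spots with a UMI moved as the levels did. Among spots thinned to 5000 UMIs (2267, 2557, 2952 and 3468 spots), Col4a1 was found in 10.8%, 11.4%, 31.4% and 33.4% and Col5a3 in 0.441%, 0.469%, 4.98% and 6.20%. Unthinned, over all kept spots, the shares were 27.6%, 26.8%, 48.4% and 58.0% for Col4a1 and 1.23%, 0.903%, 10.5% and 14.3% for Col5a3. Col6a1 was found in 4.72%, 4.73%, 12.7% and 14.9% of thinned spots and in 13.0%, 10.8%, 19.98% and 30.9% of unthinned spots. Col1a2 was found in 9.09%, 10.6%, 6.33% and 6.92% of thinned spots and in 18.7%, 19.5%, 11.5% and 15.4% unthinned. A spot with a UMI is not a cell that makes the gene, since free RNA can spread between neighbouring spots.

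Across spots, the highest correlations among collagens with at least 5 CPM were those of the interstitial chains. Col1a1 with Col1a2 had a mean correlation of 0.284 over the 4 libraries (0.301, 0.323, 0.0425 and 0.470), Col3a1 with Col1a2 of 0.284 (0.433, 0.263, 0.0863 and 0.351) and Col3a1 with Col1a1 of 0.243, each lowest in knockout 1. Over all genes, the search was made for Col4a1, Col4a2, Col6a1 and Col25a1 alone. For Col4a1 the genes with the highest mean correlation over the 4 libraries were S100a6 (0.148), Igfbp7 (0.144), Vim (0.127), Ly6a (0.114) and Cldn5 (0.113), among 7635 genes. These means lie between unlike groups: S100a6 stood at 0.0705, 0.0523, 0.240 and 0.229, and Col4a1 with Col4a2 at -0.019, 0.042, 0.136 and 0.249. Col4a2 was led by Igfbp7 (0.114), Ctla2a (0.107), S100a6 (0.104), Col4a1 (0.102) and Vim (0.0996). Col6a1 was led by Nnat (0.138), Ptk2b (0.118), Nptxr (0.116), Hpcal4 (0.114) and Slc17a7 (0.114), and Col25a1 by Scg2 (0.105), Slc6a3, Th, Slc18a2 and Ddc. Spots of a library share depth and position, correlations in sparse counts move with the level of a gene, and all these values are a description.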

How the data were processed

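Spots of 4 Visium libraries (2 controls, 2 knockouts) were read from the deposited matrices of raw UMI counts per gene and barcode. The authors made these counts with Space Ranger on mm10, per the submitters' processing notes, and the matrices name Cell Ranger 4, per the file headers; the Space Ranger version is not given in the sources used here. Neither images nor positions of the spots were analysed here.

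Counts of spots with at least 1000 UMIs were summed per library and tested with edgeR 4.0.16 (TMM factors, filterByExpr, quasi-likelihood test, no covariates) in R 4.3.3, calling genes at a Benjamini-Hochberg adjusted p (over every gene tested) below 0.05. CPM use TMM-scaled library sizes and, being 3′ counts, do not compare genes per length. Class fits took sums of class spots and of the rest blocked by library, leaving a class's own marker genes out of its calls. A spot's region was the list with the highest mean z score; lists needed 50 spots in every library. Alternatives were DESeq2 1.42.0, other scalings and filters, thinning, left-out libraries and left-out tissue. On simulated data the fits were checked with known changes. The members and lists were chosen with earlier results of these data known. Values per library are given for collagens with a mean of at least 5 CPM or past the threshold; in class fits for those with at least 5 CPM; per pathway list for up to 4 genes with the smallest p; and for collagens of at least 20 CPM the 5 genes with the highest mean correlation. Same-numbered libraries share no stated animal, litter or day.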

Additional observations from a re-analysis of the deposited data

Results flagged for a closer look

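For the following collagens the difference between a spot class and the remaining spots was not the same in knockouts and controls, by the interaction term (edgeR's quasi-likelihood test, p adjusted by Benjamini-Hochberg); values are log2, knockout minus control. The marker sums of endothelial, lesion endothelium, reactive astrocyte and phagocyte spots were higher in knockouts, as given above. That of oligodendrocyte spots was lower. In endothelial spots Col4a2 stood at 0.84 (adjusted p = 0.00265). In lesion endothelium spots Col4a2 stood at 0.87 (adjusted p = 0.00282) and Col4a1 at 0.64 (adjusted p = 0.0214). Both lost these calls without control 1 (0.76 for Col4a2 and 0.58 for Col4a1). Col4a1 also lost its call in the top 5% of spots (0.38, adjusted p = 0.923). In leptomeninges spots Col6a1 stood at -2.54, Col6a2 at -1.67, Col23a1 at -1.20 and Col25a1 at -0.70.

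In reactive astrocyte spots Col6a1 stood at -2.22, Col3a1 at -2.19, Col1a2 at -2.06, Col23a1 at -2.05, Col1a1 at -1.66, Col6a2 at -1.66, Col5a2 at -1.36, Col9a2 at -1.32, Col11a2 at -0.87 and Col25a1 at -0.81. In phagocyte spots Col11a2 stood at -1.23, Col6a1 at -0.83 and Col25a1 at -0.80. These were the 3 of 41 collagens called there, beside 3.73% of all genes (1.77% higher and 1.96% lower). In oligodendrocyte spots Col6a2 stood at -1.60 and Col4a1 at -0.46. Of 41 collagens tested there 1 was called higher and 2 lower, beside 9.38% of all genes (3.48% higher and 5.9% lower).

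Several of these calls were lost when 1 library was left out. Such a fit also has fewer libraries, so a lost call does not show that the result rested on that library. Without control 2, Col25a1 lost all 3 of its calls (-0.40 in leptomeninges, -0.31 in reactive astrocyte and -0.44 in phagocyte spots), and Col23a1 lost its call in leptomeninges spots (-0.83). Col25a1 in phagocyte spots was also lost without knockout 2 (-0.85). Col11a2 in reactive astrocyte spots was lost without control 2 (-0.60) or knockout 1 (-0.58). In phagocyte spots Col11a2 was lost without control 1 (-1.17), control 2 (-1.31) or knockout 1 (-0.97), and Col6a1 without knockout 1 (-0.72). Col5a2 in reactive astrocyte spots was lost without knockout 2 (-1.03), and Col4a1 in oligodendrocyte spots without control 1 (-0.32) or knockout 1 (-0.36). The latter was also lost in the top 5% of spots (-0.027, adjusted p = 0.976, edgeR) and with spots of at least 5000 UMIs (-0.25, adjusted p = 0.399). In both settings Col11a2 lost its calls in reactive astrocyte (-0.89 and -0.84) and phagocyte spots (-1.51 and -0.92). Col25a1 lost its call in leptomeninges spots in both (-0.66 and -0.47), and in phagocyte spots in the top 5% (-0.72).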

How the results depend on the processing

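With 2 libraries a group, depth and spread limit the rarer collagens most. The 17 higher and 9 lower whole-section calls became 13 and 5 in DESeq2, and 7 and 4 with spots thinned to 1000 UMIs, where 26 collagens were tested. These counts and those below stand without the share of all genes called in the same setting. They therefore do not tell a change of collagen calls from a change of calls in general. Lower calls were 4 without pituitary and choroid plexus spots and 5 without leptomeninges spots. Leaving out 1 library gave 10 to 15 higher and 6 to 8 lower calls. Signs turned for Col11a1 (-0.24 to 0.050) and Col12a1 (-0.033 to 0.65) with 1 library left out, Col5a1 and Col15a1 with thinned spots (0.25 and 0.22) and Col6a1 within phagocyte spots in the top 5% (-0.20); the cause was not tested. With multiplexins, the basement-membrane ratio was 2.76. With the top 5% of spots, calls between genotypes numbered 5 within endothelial (8 at 10%), 3 within leptomeninges (10), 6 within lesion endothelium (12) and 7 within oligodendrocyte spots (12), interactions 4 in smooth muscle (0), 11 in phagocyte (3) and 1 in oligodendrocyte spots (3), and oligodendrocyte spots against the rest 14 (22). With spots of at least 5000 UMIs, interactions numbered 0 in endothelial (1) and 1 in smooth muscle spots (0). Leaving out 1 library, interactions ranged from 1 to 6 in endothelial, 0 to 4 in smooth muscle, 2 to 8 in leptomeninges, 0 to 5 in lesion endothelium, 2 to 7 in phagocyte and 1 to 2 in oligodendrocyte spots; calls within the class from 4 to 12 in endothelial, 7 to 16 in leptomeninges and 5 to 7 in oligodendrocyte spots; and calls against the rest from 11 to 20 in smooth muscle, 13 to 22 in lesion endothelium and 15 to 24 in phagocyte spots. With the replicate number as a block, whole sections gave 15 higher and 8 lower calls and endothelial spots 13 (8 without it). Same-numbered libraries share a number alone, and their deviations correlated at -0.196. The crossed pairing, chosen after seeing the data, gave 18 and 10.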
